A study of Xenopus laevis with 6 samples.

Results

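The cytosolic ribosomal protein genes of *Xenopus laevis* were followed in the brains of 3 leptin-treated and 3 saline-treated frogs. They were taken as all probe sets annotated with a single gene symbol that begins with rpl or rps and a digit, or is *rplp0*, *rplp1*, *rplp2* or *rpsa*, without the *rps6k* kinases. This gave 149 of the 15495 single-symbol probe sets. The genome of this frog is doubled, and many genes exist as an L copy on a longer and an S copy on a shorter chromosome, written .L and .S. The 149 probe sets covered 90 gene copies of 11303 on the array, 44 of them L copies, 43 S copies and 3 without a suffix, and together 72 genes. A copy is represented below by its probe set with the highest mean signal unless another is named. The symbol, not a measured value, decided membership.

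The leptin group was frogs 4, 5 and 6, which received recombinant *X. laevis* leptin (rxLeptin) at 20 ng per g of body weight into the cerebral ventricles. The saline group was frogs 1, 2 and 3, which received 0.6% saline by the same route. All were juveniles averaging 0.8 g, killed 2 h after the injection, and each gave 1 Affymetrix array from a block of preoptic area, hypothalamus and pituitary. No genetic modification is given in the labels. The labels number each sample as a frog of its own, and 3 arrays per group limit the precision. Values are log2 signals as deposited, and a difference is leptin minus saline on that scale, with the standard error (SE) from limma's moderated fit.

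Ribosomal proteins are the structural proteins of the cytosolic ribosome. Those named Rpl belong to the large subunit, where peptide bonds form and the nascent chain leaves through a tunnel, and those named Rps to the small subunit, which reads the mRNA. Their mRNAs are among the most abundant in animal cells. They carry a pyrimidine tract at the start of the mRNA, a TOP motif, through which their translation follows the activity of the TOR kinase, a sensor of nutrients and growth factors. Much of this translational control was worked out in *X. laevis*.

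Some arrays stood apart in the tissues they held. Over 6 pituitary hormone genes measured, the mean signal was 11.30, 11.54 and 11.21 in leptin frogs 4, 5 and 6, against 5.22, 10.66 and 11.79 in saline frogs 1, 2 and 3, so that saline frog 1 had little pituitary signal. *pomc.L*, which encodes the precursor of the pituitary melanocyte-stimulating hormone, was between 14.01 and 14.25 in leptin frogs, at 9.11 in saline frog 1 and at 13.86 and 14.37 in the other saline frogs. Over 9 skeletal muscle genes the mean was 6.27, 6.10 and 6.25 in leptin frogs, against 6.78, 6.23 and 9.12 in saline frogs, so that saline frog 3 stood out. The block held neurons in all frogs, with *snap25.L*, a synaptic fusion protein gene, at 13.65 to 13.83 in leptin frogs and 13.64 to 13.75 in saline frogs. The 6 genes of proliferating cells averaged 8.03, 8.01 and 7.96 in leptin frogs and 7.60, 7.74 and 7.76 in saline frogs, and all 6 genes had higher means in leptin frogs. This list mean did not overlap between groups, while single genes such as *mcm2.L* did. Erythrocyte genes averaged 11.54, 11.65 and 11.67 in leptin frogs and 12.10, 11.29 and 11.75 in saline frogs, and the 4 measured hypothalamic genes 10.17, 9.98 and 10.04 in leptin frogs and 9.59, 9.90 and 10.69 in saline frogs. Array medians were 7.45, 7.46 and 7.36 in leptin frogs 4, 5 and 6, and 7.44, 7.42 and 7.45 in saline frogs. Any part of these differences in the results below was not tested unless a value is given.

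The ribosomal protein copies gave some of the strongest signals on the array. Their median signal was 13.55, and the median copy stood at the 99.4th percentile of all probe sets tested. Of the 90 copies, 80 had a mean of 11 or above and 66 had a mean of 13 or above. Signals of different probe sets depend on their probes as well as on RNA amount, so an order among them is an order of signals. The 6 strongest were *rps2.L* at 14.75, *rps27.S* at 14.57, *rpl38.L* at 14.48, *rps3a.S* at 14.44, *rps14.S* at 14.35 and *rps29.S* at 14.32. The highest value of any probe set on the 6 arrays was 14.85 to 14.89 in leptin frogs and 14.86 to 14.92 in saline frogs, so *rps2.L* was close to the top of the measured range.

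The weakest copies lay far below this. They were *rpl19-b* at 4.22, *rpl29.S* at 4.77, *rpl34.S* at 4.99, *rpl3l.L* at 5.09, *rps15.S* at 6.27 and *rpl37.S* at 6.66. Within a copy, signals varied as well, since 34 copies had several probe sets, up to 5, and 23 of the 80 bright copies also had a probe set below 11. Of the 43 member probe sets below 11, 17 carried an identifier of the type .A1, the antisense orientation in the array's naming, against 4 of the 106 at 11 or above. Of the 90 copies, 42 were read by probe sets whose identifier ends in _s_at, _x_at or _a_at, which can match more than one transcript, so their assignment to L or S is uncertain. A weak probe set therefore does not show that the copy was silent.

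A further 18 ribosomal probe sets carried several symbols, mostly the L and S copies of 1 gene, and were kept out of the counts.

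After leptin, the ribosomal protein signals lay a little lower than after saline, and nearly all of them did so. Of the 90 copies, 87 had the lower mean in leptin frogs, against 55.6% of all 11303 copies. The median difference was -0.12, a leptin-to-saline ratio of 0.921, with the middle 50% of copies between -0.16 and -0.08. Over all copies the median was -0.02. In 64 of the 90 copies (71.1%) all leptin frogs lay below all saline frogs, where 9.91% of all copies did so, and in 0 copies did all leptin frogs lie above all saline frogs, where 4.4% of all copies did. In a block of mixed tissue, fewer cells with many ribosomes and less of this RNA per cell cannot be told apart.

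No single copy passed the test. With Benjamini-Hochberg adjustment over all 32539 probe sets, limma called 0 of the 90 copies at 0.05, and the lowest adjusted p among them was 0.906. It called 0 of all probe sets as well (0.0%), with a lowest adjusted p of 0.291. Of all probe sets, 1533 (4.71%) had an unadjusted p under 0.05. At an unadjusted p under 0.05, 11 copies were lower (12.2%) and 0 higher, against 3.59% of all copies lower and 1.57% higher. With leptin frog 5 left out this count was 1, against 2.05% of all copies, and without saline frog 1 it was 2, against 2.29%. As a share of the 90 copies, neither count exceeded that of all copies. Without leptin frog 4 the count was 4, against 2.88%, and without leptin frog 6 it was 6, against 2.29%. The median SE of a copy was 0.07, of the same order as the median difference. Moderation draws this SE toward the spread of all probe sets, so it is not the spread of the copies alone. The median pooled SD within groups was 0.045 for the copies and 0.146 for all probe sets.

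**Figure D1:**
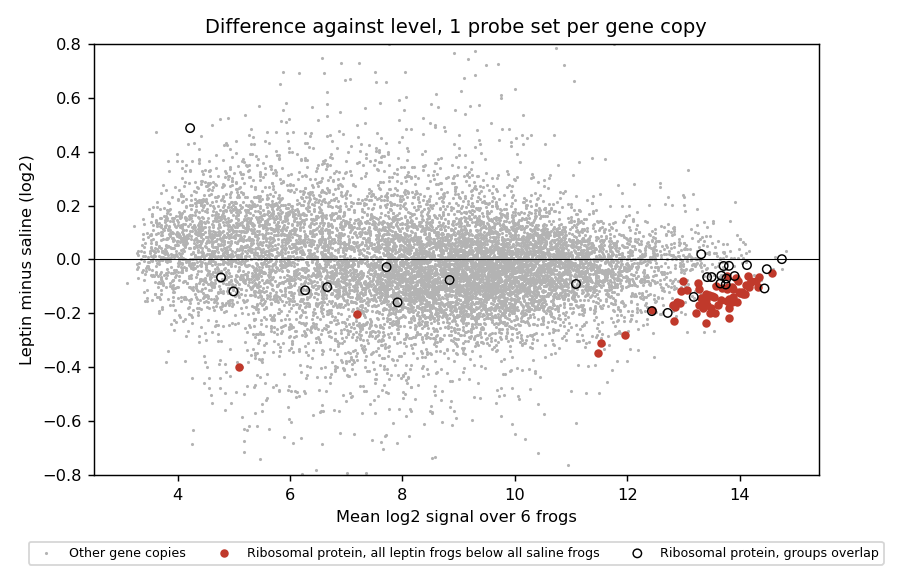
Difference between leptin and saline (log2, vertical axis) against mean signal over 6 frogs (log2, horizontal axis), 1 probe set per gene copy. Grey points are other gene copies, filled points the 64 ribosomal protein copies in which all leptin frogs lay below all saline frogs, and open points the other 26 (differences beyond 0.8 in either direction are not drawn).

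The separation of the groups was more frequent in the bright copies, while the median shift of the probe sets representing them was alike. Of the 80 copies at 11 or above, 78 were lower, 62 of them without overlap (77.5%), with a median of -0.12. The 10 dimmer copies had 9 lower, 2 of them without overlap (20%, against 9.91% of all copies), with a median of -0.11. The median pooled SD was 0.04 in the bright and 0.13 in the dimmer copies. Over all member probe sets, not only those that represent a copy, the dim ones were more mixed. Of the 43 below 11, 31 were lower and 12 higher, with a median of -0.08. In 5 of them (11.6%) all leptin frogs lay below all saline frogs, against 6.78% of all probe sets. Of the 106 at 11 or above, 104 were lower, 80 of them without overlap (75.5%), with a median of -0.13. Other genes of like signal had smaller shares, since of 1321 other copies at 11 or above, 58.6% were lower and 13.9% lay below without overlap, with a median of -0.02. At 13 or above, 64 of 66 ribosomal protein copies were lower and 51 did not overlap, with a median of -0.11, against 76 of 160 other copies lower, 20 (12.5%) without overlap and a median of 0.00. These shares are descriptions, and the members share their arrays. The bright ribosomal copies also varied together, with a median correlation between copies of 0.80 over the 6 frogs, against 0.03 for the other copies at 11 or above. With group means removed it was 0.35, against 0.01. The counts of ribosomal copies are therefore not counts of separate findings.

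Taken in steps of signal, the medians of the bright probe sets were nearer 0 at the top of the range. Among probe sets between 12 and 13, the median was -0.18 over 18 ribosomal probe sets and -0.01 over 586 others. Between 13 and 14 it was -0.14 over 62 ribosomal probe sets and 0.00 over 260 others, and between 14 and 15 it was -0.09 over 19 and -0.01 over 51. The spread within groups narrowed as well, with a median pooled SD of 0.07 between 12 and 13 and 0.03 between 14 and 15 for ribosomal probe sets. In these 3 steps, 75.8% to 78.9% of ribosomal probe sets lay below without overlap, and 12.3% to 13.7% of the others. The 7 ribosomal probe sets between 11 and 12 had a median of -0.20. Of these, 4 (57.1%) lay below without overlap, against 11.3% of the others.

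The groups were apart frog by frog. Averaged over the 80 bright copies, the signal was 13.49, 13.48 and 13.45 in leptin frogs 4, 5 and 6, and 13.63, 13.59 and 13.58 in saline frogs 1, 2 and 3. All leptin frogs lay below all saline frogs in this mean. Over all 90 copies, saline frog 1 had the highest signal in 57 and leptin frog 6 the lowest in 47. Over all 32539 probe sets, saline frog 1 was the highest in 5707 and leptin frog 6 the lowest in 7940. Leptin frog 6 was also the highest in 8441 of all probe sets, against 3 of the 90 copies. A leptin frog was the highest in 5 copies and a saline frog the lowest in 6, against 16204 and 16378 of all probe sets.

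**Figure D2:**
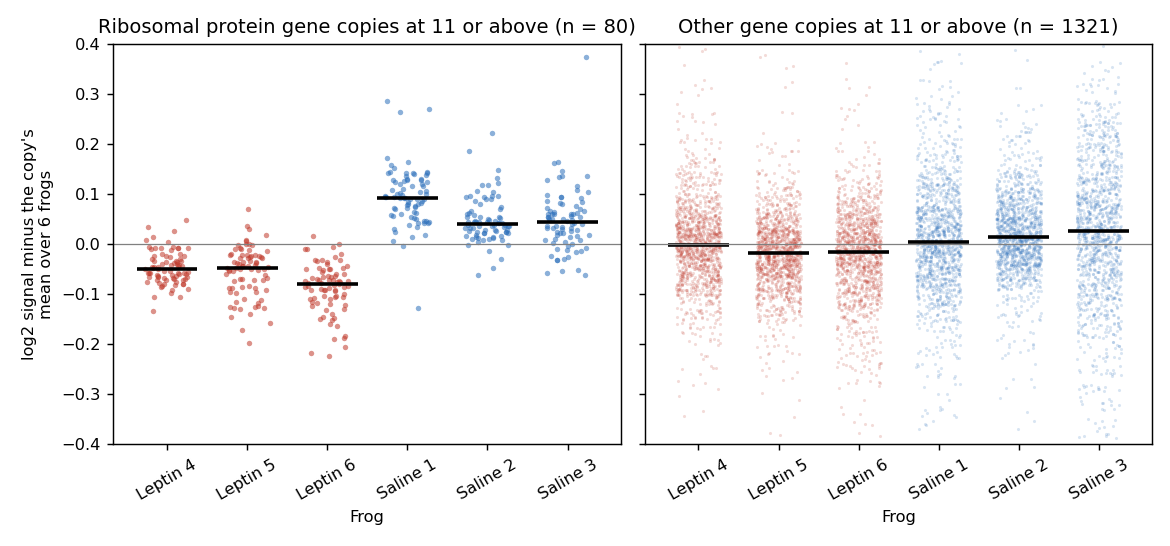
Signal of each copy in each frog minus that copy's mean over the 6 frogs (log2), for the 80 ribosomal protein copies (left) and 1321 other copies (right) with a mean of 11 or above. Points are copies, black bars are medians, leptin frogs stand left of saline frogs, and points beyond 0.4 are not drawn. The ribosomal medians were -0.05, -0.05 and -0.08 in leptin frogs 4, 5 and 6, and 0.09, 0.04 and 0.04 in saline frogs 1, 2 and 3.

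Saline frog 1, the frog with little pituitary signal, the highest erythrocyte mean and the lowest hypothalamic mean, was the highest of the saline frogs in this measure. Without it, 85 of 90 copies were lower after leptin, 64 of them without overlap where 14.8% of all copies did so, and the median was -0.11. Without saline frog 3, the frog with muscle signal, 88 were lower and 77 did not overlap, against 15.5% of all copies. In a comparison added after the data were seen, with saline frog 2 as the only saline frog left, 86 were lower, 77 of them without overlap against 27.3% of all copies, and the median was -0.10. The mean of the proliferating-cell genes was higher in all leptin frogs than in all saline frogs, opposite to the ribosomal protein mean, and the part of these marker differences was not tested.

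The large subunit had 52 copies with canonical names and all 52 were lower, 38 of them without overlap, with a median of -0.13. The small subunit had 33 such copies, of which 31 were lower and 24 did not overlap, with a median of -0.10. With quantile normalization 3 of the large subunit copies, *rpl38.L*, *rpl10.S* and *rplp0.S*, had differences above 0. The remaining 5 copies were paralogs or had other symbols. Of 44 L copies 43 were lower, 32 of them without overlap, and of 43 S copies 43 were lower, 31 without overlap. Over all copies on the array, 55.6% were lower and 9.91% lay below without overlap.

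**Figure D3:**
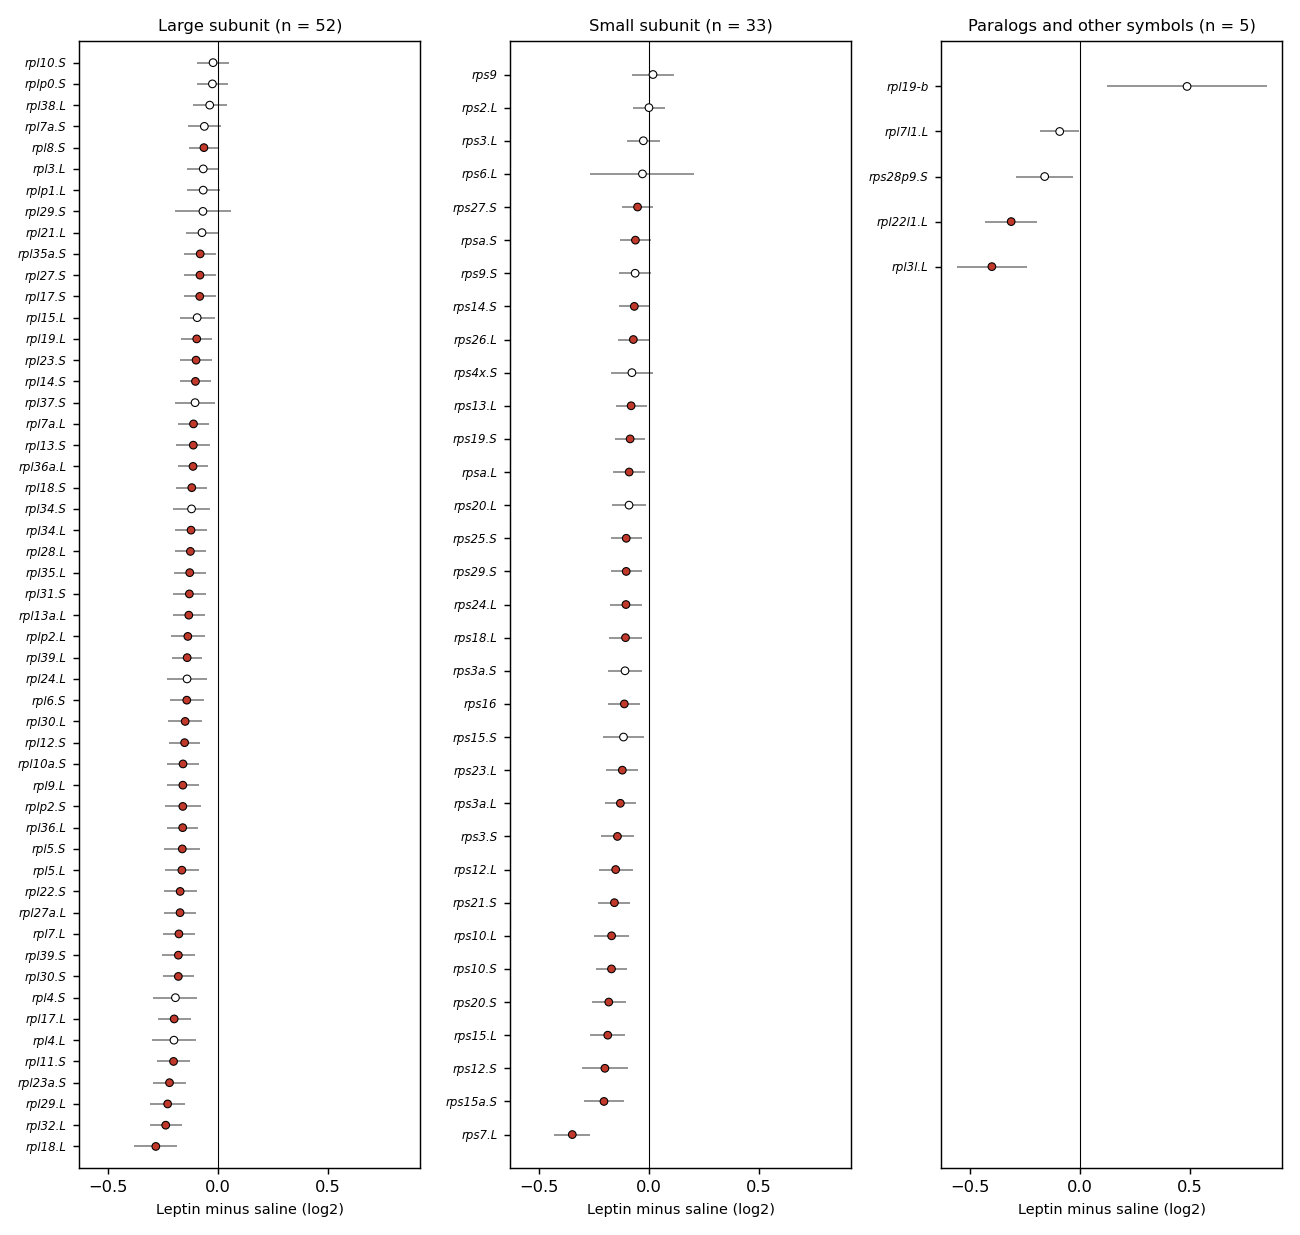
Difference between leptin and saline (log2) for each of the 90 copies, with the SE from limma as bars (3 frogs per group), split into large subunit, small subunit and other symbols and ordered by difference. Filled points mark copies in which all leptin frogs lay below all saline frogs. The large subunit copies ran from -0.28 to -0.02 and the small subunit copies from -0.35 to 0.02.

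In the large subunit, *rpl23a.S*, whose product docks the signal recognition particle and nascent-chain factors at the exit, was at 13.75, 13.69 and 13.66 in leptin frogs, against 13.96, 13.91 and 13.89 in saline frogs. All leptin values lay below all saline values, with a difference of -0.22 (SE 0.07). *rpl17.L*, for another protein at the exit, differed by -0.20 (SE 0.07) and its S copy by -0.08 (SE 0.07), and *rpl39.L* and *rpl39.S*, which encode a small protein lining the tunnel, by -0.14 and -0.18 (SE 0.07 each). All 4 were also without overlap between the groups. *rpl19.L*, *rpl35.L* and *rpl31.S*, whose products also lie at the exit, differed by -0.10, -0.13 and -0.13, near the large subunit median of -0.13.

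*rpl32.L*, for a conserved large subunit protein, was at 13.32, 13.22 and 13.28 in leptin frogs and 13.52, 13.53 and 13.49 in saline frogs. The groups were separated, with a difference of -0.24 (SE 0.07). *rpl18.L* was at 11.91, 11.81 and 11.76 in leptin frogs and 12.25, 12.09 and 11.98 in saline frogs, a difference of -0.28 (SE 0.10). It had the most negative difference of the large subunit, and saline frog 1 was its highest value. A brighter probe set annotated to both *rpl18.L* and *rpl18.S*, with a mean of 14.12, differed by -0.08 (SE 0.07). *rpl18.S* differed by -0.12 (SE 0.07), and both were without overlap. *rpl29.L* differed by -0.23 (SE 0.08), *rpl30.S* by -0.18 (SE 0.07) and *rpl7.L* by -0.18 (SE 0.07), each without overlap.

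Rpl5 and Rpl11 form a particle with the 5S ribosomal RNA that joins the large subunit and, when free, binds the p53 regulator Mdm2 in mammals. *rpl11.S* was at 13.40, 13.34 and 13.40 in leptin frogs, against 13.64, 13.53 and 13.57 in saline frogs. The groups did not overlap and the difference was -0.20 (SE 0.07). *rpl5.L* differed by -0.16 (SE 0.08) and *rpl5.S* by -0.16 (SE 0.08), both without overlap. *rpl22.S*, which encodes an RNA-binding protein of the large subunit, differed by -0.17 (SE 0.07) without overlap.

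*rpl3.L*, whose product reaches toward the peptidyl transferase center, was at 13.44, 13.49 and 13.47 in leptin frogs and 13.58, 13.49 and 13.53 in saline frogs. The groups overlapped, with a difference of -0.07 (SE 0.07), and all 5 of its probe sets gave differences between -0.08 and -0.02. *rpl10.S*, whose product is among the last to join in the cytoplasm, differed by -0.02 (SE 0.07), and by 0.02 with quantile normalization. *rpl8.S* differed by -0.06 (SE 0.07), with all leptin values below all saline values. *rpl10.S* and *rpl8.S* were among the 6 copies with the smallest SD over the frogs, which limits how far their groups can differ.

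The stalk of the large subunit, which recruits the translation factors that split GTP, is built from Rplp0 with dimers of Rplp1 and Rplp2. *rplp0.S* was the steadiest copy of all 90, with an SD over the 6 frogs of 0.03. It was at 13.82, 13.77 and 13.81 in leptin frogs, against 13.85, 13.81 and 13.80 in saline frogs. These values overlapped, and the difference was -0.02 (SE 0.07), or 0.04 with quantile normalization. *rplp1.L* differed by -0.07 (SE 0.07) with overlap, and *rplp2.L* and *rplp2.S* by -0.14 and -0.16 (SE 0.08 each) without overlap. Differences between the stalk genes were not tested.

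*rps7.L* had the most negative difference of the small subunit copies, and it had the smallest unadjusted p of all 90 copies. Rps7 is a protein of the small subunit body that takes part in maturation of the small ribosomal RNA. It was at 11.38, 11.29 and 11.27 in leptin frogs, against 11.75, 11.63 and 11.59 in saline frogs. The lowest saline value was above the highest leptin value, with a difference of -0.35 (SE 0.08, limma adjusted p = 0.906), and it ranked 95th by p among all probe sets. A probe set annotated to both *rps7.S* and *rps7.L* had a difference of -0.11 (SE 0.08) without overlap.

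*rps2.L*, the strongest signal of the family, encodes a protein near the mRNA entry channel. It was at 14.78, 14.73 and 14.74 in leptin frogs and 14.77, 14.78 and 14.70 in saline frogs. The groups overlapped fully and the difference was 0.00 (SE 0.07), or -0.02 with quantile normalization. *rps27.S* at 14.56, 14.57 and 14.50 in leptin frogs, against 14.60, 14.60 and 14.59 in saline frogs, was separated by a difference of only -0.05 (SE 0.07). *rps14.S* and *rps29.S* differed by -0.07 and -0.10 (SE 0.07 each), both without overlap.

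Rps3 lines the mRNA entry and also has roles in DNA repair in mammals. *rps3.L* differed by -0.02 (SE 0.08) with overlap, and by 0.02 with quantile normalization, while *rps3.S* differed by -0.14 (SE 0.08) without overlap. *rpsa.L* and *rpsa.S*, which encode the protein also known as the laminin receptor, differed by -0.09 and -0.06 (SE 0.07 each), both without overlap. *rps19.S*, whose human counterpart is mutated in Diamond-Blackfan anemia, was at 14.16, 14.16 and 14.14 in leptin frogs, against 14.25, 14.21 and 14.24 in saline frogs. The groups were apart by -0.08 (SE 0.07).

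Rps6 is the ribosomal protein phosphorylated by the S6 kinases downstream of TOR. Its single-symbol probe set, *rps6.L*, was dim and variable, at 7.88, 7.45 and 7.79 in leptin frogs, against 7.98, 7.99 and 7.22 in saline frogs, with a difference of -0.03 (SE 0.24). Its sign turned when saline frog 1, saline frog 2 or leptin frog 5 was left out (0.10 in each case). The brighter probe set annotated to both *rps6.S* and *rps6.L* had a mean of 13.70 and differed by -0.12 (SE 0.07), without overlap. *rps4x.S*, from the gene whose human counterpart lies on the X chromosome, was at 8.84 on average and differed by -0.08 (SE 0.10) with overlap. A probe set shared by *rps4x.S* and *rps4x.L* differed by -0.10 (SE 0.07), with the groups apart.

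Over the 18 probe sets with several symbols, 17 were lower and 14 of them did not overlap (77.8%), with a median of -0.11. Of all probe sets, 47.6% were lower and 6.78% lay below without overlap. The 18 probe sets were not used to represent any copy.

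Only 3 copies had a difference above 0. *rpl19-b*, the dimmest copy, was at 3.94, 4.09 and 5.37 in leptin frogs, against 3.98, 3.93 and 4.04 in saline frogs. Only leptin frog 6 was high, the other 5 frogs lying between 3.93 and 4.09, and the difference was 0.49 (SE 0.36). The bright *rpl19.L* differed by -0.10 (SE 0.07) without overlap. *rps9*, annotated without a suffix, differed by 0.02 (SE 0.09), and by -0.04 without saline frog 1. *rps2.L* was described above.

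Among the paralogs, *rpl22l1.L*, a close relative of *rpl22*, was at 11.41, 11.40 and 11.35 in leptin frogs, against 11.68, 11.49 and 11.92 in saline frogs, with saline frog 3 the highest. The groups did not overlap, with a difference of -0.31 (SE 0.12). *rpl3l.L*, the paralog of *rpl3* that in mammals is made in striated muscle, was dim, at 4.81, 4.82 and 5.04 in leptin frogs and 5.21, 5.04 and 5.61 in saline frogs. Its highest value was again in saline frog 3, the frog with muscle signal, and its difference was -0.40 (SE 0.16). Its other probe sets, both below 4, gave 0.10 (SE 0.29) and -0.16 (SE 0.10). *rpl7l1.L*, which encodes a relative of Rpl7 with a role in ribosome assembly, differed by -0.09 (SE 0.09) with overlap.

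Where 1 copy was read by several bright probe sets, the dimmest mostly gave the more negative difference. There were 17 copies with at least 2 probe sets at 11 or above. In 15 of them the dimmest of these had the more negative difference, with medians of -0.18 for the dimmest and -0.10 for the brightest. *rpl17.S* gave -0.31 (SE 0.09) at a signal of 12.14 and -0.08 (SE 0.07) at 13.97. *rps19.S* gave -0.22 (SE 0.08) at 12.23 and -0.08 (SE 0.07) at 14.19. *rps3.L* gave -0.18 (SE 0.09) at 12.59 and -0.02 (SE 0.08) at 13.71.

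The exceptions were *rps3a.S*, with -0.07 at the dimmer and -0.11 at the brighter probe set, and *rps9.S*, with -0.06 at both. Several of these probe sets can match other transcripts, and whether the brightest ones are limited by the top of the measured range was not tested. The size of a difference thus depended on the probe set read, and its sign was negative at both ends in 16 of the 17 copies, the exception being *rps2.L* with 0.00 at both.

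**Figure D4:**
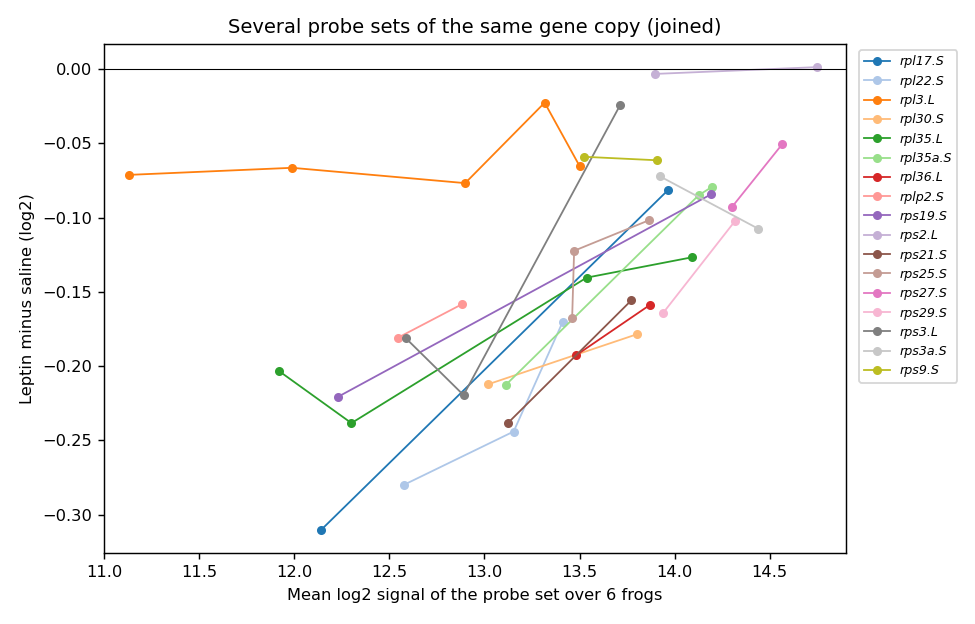
Difference between leptin and saline (log2, vertical axis) against mean signal over 6 frogs (log2, horizontal axis) for the 17 copies with at least 2 probe sets at 11 or above. Each point is a probe set, and lines join the probe sets of 1 copy. In 15 of the 17 copies the dimmest probe set lay lower than the brightest.

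Both the L and the S copy were measured for 17 genes. Because the copies were read by different probe sets, L minus S is a difference of signals, read within each frog, and not a ratio of RNA amounts. Only *rpl29*, *rps15*, *rpl5*, *rps20*, *rpl4* and *rps10* had no probe set ending in _s_at, _x_at or _a_at for either copy. In the other pairs a signal may include other transcripts, and its assignment to L or S is uncertain. L had the higher mean signal in 11 genes and S in 6, and in 16 of the 17 the order was the same in all 6 frogs. The exception was *rpl30*, with L minus S of 0.00 ± 0.04 (SD, n = 6), whose L and S probe sets come from 1 sequence cluster of the array, so that they may read both copies. The median size of L minus S was 0.45, against 0.93 over 1992 other pairs. The ribosomal copies were brighter, with a median signal of 13.55 against 8.51 over all copies, and pairs of like signal were not compared.

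The widest gaps were those in which the S probe set was dim. L minus S was 9.05 ± 0.07 for *rpl34*, 8.06 ± 0.20 for *rpl29* and 6.18 ± 0.08 for *rps15* (SD, n = 6). Rps15 is a protein of the small subunit head. The probe set shared by *rps15.L* and *rps15.S* differed between leptin and saline by -0.11 (SE 0.08). Among pairs with both copies bright, L was ahead by 0.63 ± 0.04 for *rplp2*, 0.45 ± 0.13 for *rps12*, 0.43 ± 0.03 for *rpl5*, 0.40 ± 0.08 for *rps3*, 0.39 ± 0.05 for *rpl39*, 0.30 ± 0.07 for *rps20* and 0.28 ± 0.05 for *rpl4*. The order for *rps3* turned, to -0.25, when all probe sets of a copy were averaged.

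S was ahead in the other pairs. L minus S was -1.04 ± 0.04 for *rps3a*, -0.98 ± 0.12 for *rpl18*, -0.50 ± 0.05 for *rpsa*, -0.47 ± 0.05 for *rps10*, -0.41 ± 0.07 for *rpl17* and -0.39 ± 0.05 for *rpl7a* (SD, n = 6). The probe sets of *rps3a* also share a sequence cluster. For *rpl18* the order turned, to 3.25, when all probe sets of a copy were averaged, and for *rpl17* it turned, to 0.50, in the same way. The average for *rpl18.S* took in a dim probe set at 4.48 beside the one at 12.95, and a weak probe set does not show a weak copy. Which copy has the stronger signal is therefore uncertain for these genes.

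**Figure D5:**
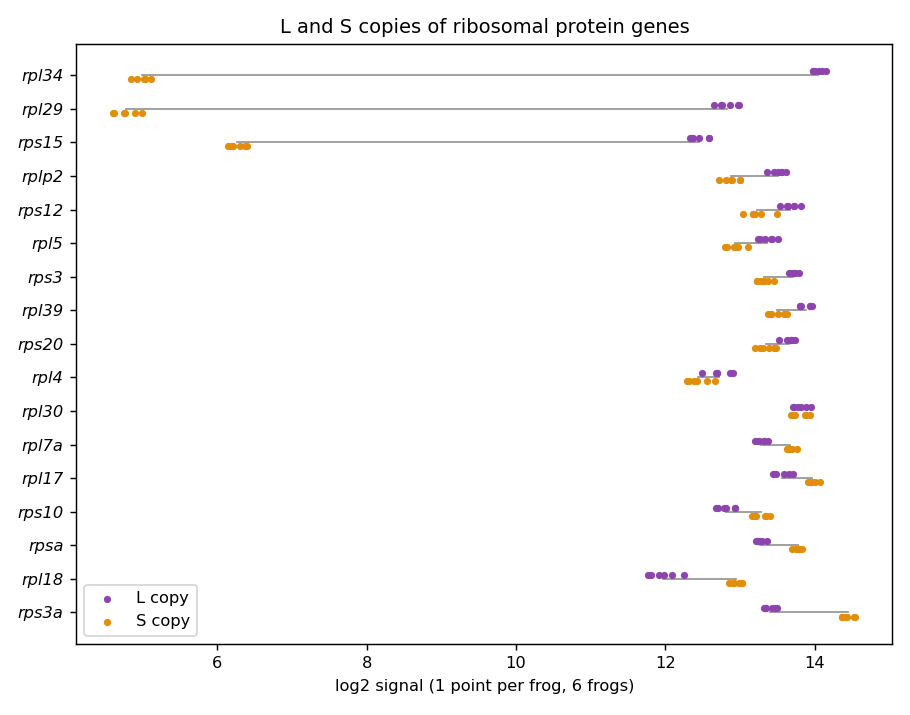
Signal of the L and the S copy (log2, horizontal axis) for 17 ribosomal protein genes, with 1 point per frog (3 leptin and 3 saline frogs) and a line joining the means of the copies. Genes run from the largest L minus S at the top (*rpl34*, 9.05) to the smallest at the bottom (*rps3a*, -1.04).

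Leptin and saline frogs did not differ in L minus S beyond the test's threshold. Of all 2009 pairs, limma called 0 at an adjusted p of 0.05 (0.0%, lowest 0.868) and 103 (5.13%) at an unadjusted p under 0.05, and of the 17 ribosomal pairs 0 at either. The SE of the between-group difference was 0.07 to 0.15 over the 17 pairs. *rps3* had L minus S of 0.48, 0.50 and 0.38 in leptin frogs, against 0.33, 0.35 and 0.34 in saline frogs. All leptin frogs lay above, with a between-group difference of 0.12 (SE 0.07). *rps20* also had all leptin frogs above, with 0.09 (SE 0.07). Of all 2009 pairs, 6.42% lay above without overlap and 5.28% below. The dimmest bright probe set of *rps3.L* differed between leptin and saline by -0.18, more than the -0.14 of *rps3.S*, so the order depends on the probe set. *rpl17* had -0.43, -0.50 and -0.48 in leptin frogs, against -0.35, -0.35 and -0.36 in saline frogs, a between-group difference of -0.12 (SE 0.07). All leptin frogs lay below. The dimmer probe set of *rpl17.S* differed between leptin and saline by -0.31, more than the -0.20 of *rpl17.L*, so this order depends on the probe set too.

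In 9 of the 17 genes both copies lay lower after leptin without overlap, in 7 only 1 copy did, and in 1, *rpl4*, neither did. Of all 2009 pairs, 3.33% had both copies and 14.6% had 1 copy lower without overlap. *rps10* shows the first case, with -0.17 (SE 0.08) for L and -0.17 (SE 0.07) for S. Dim probe sets of *rps10.L* did not follow. At a signal of 5.23 the difference was 0.33 (SE 0.13), with all leptin frogs above all saline frogs, and at 6.24 it was -0.002 (SE 0.25). All leptin frogs lay above in 1 of the 149 member probe sets, this one at 5.23, against 5.15% of all probe sets. *rpl4* differed by -0.20 (SE 0.10) for L and -0.19 (SE 0.10) for S, with groups that overlapped. *rps12* differed by -0.15 (SE 0.08) for L and -0.20 (SE 0.10) for S. Among the genes with both copies lower without overlap, only *rpl5* and *rps10* had no probe set ending in _s_at, _x_at or _a_at. In the others the L and S signals may come in part from the same transcripts, so they may not be separate readings.

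Genes outside the symbol rule that encode translation factors, or whose mRNAs are known in mammals to carry a TOP motif, were read from a list of 22 names. Of these, 15 genes with 22 copies were measured. Among them was *fau.L*, for a ribosomal protein under another name, which differed by -0.09 (SE 0.07) without overlap. With limma, 0 of the 22 copies passed the adjusted threshold. At an unadjusted p under 0.05, 4 were lower (18.2%, against 3.59% of all copies). Their median was -0.10, 17 copies were lower and 7 of 22 (31.8%) lay below without overlap, against 9.91% of all copies. *eif3e.S* and *eif3e.L*, for a subunit of the initiation factor that binds the small ribosomal subunit, differed by -0.29 and -0.27 (SE 0.09 each). *eif2s3.S*, for the gamma subunit of the factor that brings the initiator tRNA, differed by -0.29 (SE 0.11), and *npm1.S* and *npm1.L*, for the nucleolar chaperone nucleophosmin, by -0.23 (SE 0.08) and -0.25 (SE 0.11). These 5 copies had groups that did not overlap, except *npm1.L*.

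A list of 46 ribosome assembly genes had 40 genes with 49 copies measured, with 0 past limma's adjusted threshold. At an unadjusted p under 0.05, 3 of the 49 copies were lower (6.12%, against 3.59% of all copies). Their median was -0.06, 34 were lower, 5 lay below without overlap (10.2%) and 1 above. The share below is near the 9.91% of all copies, so it is no result about the list, and its members with the smallest p follow as values only. *rsl24d1.S*, for a factor that holds the place of a ribosomal protein on the immature large subunit, was at 11.29, 11.20 and 11.19 in leptin frogs, against 11.87, 11.51 and 11.46 in saline frogs. The groups were apart by -0.39 (SE 0.13), and its L copy by -0.20 (SE 0.08). *nop10.S*, for a protein of the particles that modify ribosomal RNA, differed by -0.24 (SE 0.10), and *nle1.S*, for a factor of large subunit maturation, by -0.27 (SE 0.13). *polr1a.L*, for the largest subunit of RNA polymerase I, which transcribes ribosomal RNA, differed in the other direction by 0.22 (SE 0.11), with all leptin frogs above all saline frogs.

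Of 22 names in the TOR pathway and the S6 kinase families, 12 genes with 16 copies were measured, with 0 past limma's adjusted threshold and 1 lower at an unadjusted p under 0.05. Of these, 11 were lower, 4 of them without overlap (25%, against 9.91% of all copies), with a median of -0.07. The 1 copy is 6.25% of the list, against 3.59% of all copies lower at that p. *pdcd4.S* and *pdcd4.L*, for a translation inhibitor that S6 kinase marks for destruction in mammals, differed by -0.26 (SE 0.10) and -0.18 (SE 0.08), both without overlap. *rps6ka6.S*, for a kinase of the Rsk family, differed by -0.23 (SE 0.12) and *akt1s1.L*, for an inhibitory partner of the TOR kinase, by -0.13 (SE 0.09), both without overlap. *eif4ebp2.L*, for a repressor of cap-dependent initiation, differed by -0.25 (SE 0.20) with overlap. The S copies of the last 2 genes were not lower, with 0.0005 (SE 0.12) for *akt1s1.S* and 0.11 (SE 0.17) for *eif4ebp2.S*. The S6 kinase copies *rps6kb1.S* and *rps6kb1.L* differed by 0.01 (SE 0.09) and -0.004 (SE 0.09), with overlap.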

How the data were processed

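The authors deposited a log2 signal for each probe set on each array, which was used unaltered. RMA, affy and limma appear in the submitters' processing notes with no version or role. Per the labels' protocols, RNA labelling started from 250 ng of total RNA. The 96 AFFX control probe sets of 32635 were left out, and 32539 were tested. Probe sets were named from the array annotation. Of the 149 members, 147 matched the RefSeq table of Xenopus_laevis_v10.1 by Entrez identifier and 0 changed symbol, and the array annotation's build is not given in the sources used here.

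The group difference was fitted with limma 3.58.1 (R 4.3.3; lmFit, eBayes, two-sided, no covariate), with Benjamini-Hochberg adjustment over all probe sets at 0.05. L minus S was formed in each frog and tested the same way over all 2009 pairs. An exact permutation test of 3 frogs against 3 cannot give a two-sided p below 0.1, so none is given. The script was tested on simulated data.

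Named copies were the 6 highest and lowest in signal, the 6 largest differences each way, those with unadjusted p under 0.05, the 6 largest and smallest SDs, the extreme and near-equal L and S pairs, copies with a role of their own, paralogs, and up to 5 members of each translation list by p. Copies named beyond this, such as *rpl19.L*, and the probe sets with several symbols were chosen after their values were seen. The members, lists and tests were chosen with earlier results of these data known. Alternatives covered scaling, variance moderation, array weights, filters, probe set choice and leaving out frogs.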

Additional observations from a re-analysis of the deposited data

How the results depend on the processing

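The median difference of the ribosomal protein copies stayed between -0.13 and -0.09 under all alternatives, and 0 copies passed the adjusted threshold in any. The 87 of 90 copies with the lower mean after leptin were 84 with quantile normalization and 62 of 70 without shared-type probe sets. In the main setting 55.6% of all copies had the lower mean. The 64 copies with leptin below saline without overlap were 50 with centred arrays, 44 with quantile normalization and 52 with copy means. Of all copies, 8.11%, 8.63% and 9.55% did so. Without shared-type probe sets the count was 37 of 70, against 9.75% of all such copies. With 1 frog left out it was 64 to 77, when 14.4% to 19.7% of all copies did so. The 11 copies lower at an unadjusted p under 0.05 were 6 with centred arrays, 7 with quantile normalization and 20 with copy means. Of all copies, 3%, 3.51% and 4.21% were lower at that p. The count was 23 with array weights (4.63% of all copies). Over the brighter 50% of probe sets it was 24 of 83 (5.69% of all copies there). It was 54 with robust eBayes and a trend (4.93%) and 55 without variance moderation (4.82%). With 1 frog left out it was 1 to 9, against 2.05% to 5.58% of all copies. So this count depends on the variance model.

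With 1 frog left out, 0 to 4 of all probe sets and 0 to 1 of all L and S pairs passed the adjusted threshold, the highest counts without saline frog 2, and 1 pair passed without saline frogs 1 and 3. Of the ribosomal pairs, 2 had an unadjusted p under 0.05 without moderation and 1 with copy means. L minus S turned for *rpl17* (0.50 with copy means, 1.41 without shared-type probe sets), *rpl18* (3.25) and *rps3* (-0.25), both with copy means.

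Of 585 values of 43 named copies, 21 turned sign, in 12 copies. With quantile normalization these were *rps2.L* (-0.018), *rpl38.L* (0.0043), *rpl10.S* (0.023), *rplp0.S* (0.037) and *rps3.L* (0.017). With array weights *rps2.L* gave -0.0099, and without shared-type probe sets *rps27.S* gave 0.097 and *rpl3l.L* 0.10. With 1 frog left out, *rps2.L* ran from -0.025 to 0.018, *rpl38.L* from -0.063 to 0.0083, *rps3.L* from -0.057 to 0.0085, *rps9* from -0.039 to 0.089, *rps4x.S* from -0.13 to 0.0013 and *rps6.L* from -0.29 to 0.10. Without saline frogs 1 and 3, *rps2.L* gave -0.032, *rpl7l1.L* 0.016 and *rps15.S* 0.0048. The causes were not tested. No paired analysis was possible because leptin and saline frogs share no number.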

Other observations

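Genes of other large complexes were read in the same way, in classes chosen after the data were seen. Mitochondrial ribosomal proteins, which form the separate ribosome of the mitochondrion, had 52 copies, of which 48 had the lower mean after leptin, with a median of -0.11. In 12 of them (23.1%) all leptin frogs lay below all saline frogs, and none of the 52 copies had a mean of 11 or above. Subunits of the respiratory chain and ATP synthase had 75 copies, 61 lower, 20 without overlap (26.7%) and a median of -0.08. Proteasome subunits had 52 copies, 37 lower, 5 without overlap (9.62%) and a median of -0.06. Over all copies 9.91% lay below without overlap and the median was -0.02. Whether the cytosolic ribosomal protein copies differ from these classes was not tested.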
